A study of Bos taurus with 6 samples.

Results

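Translation initiation and elongation factors are the proteins that bring a ribosome to the start codon of an mRNA and then move it along the coding sequence. Their genes were taken from the count files by symbol, as every gene named EIF with a digit from 1 to 6 or named EEF, without the EIF2AK kinases. This gave 60 genes among 23015 listed rows, each with 1 row, and all 60 were found as protein-coding genes in RefSeq's table for the ARS-UCD2.0 cattle assembly. There EIF3C is another name of EIF3CL, the symbol under which this subunit was counted.

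RNA was sequenced from longissimus thoracis (LT) muscle of 6 Hanwoo (Korean native cattle) steers with 1 library per steer. The high-NFMP group (a high number of fine marbling particles, the small flecks of fat in the cut surface) held steers 3-8, 10-8 and 10-9, aged 32.5, 33.8 and 34.5 months. The low-NFMP group held steers 3-1, 3-3 and 10-16, aged 37.8, 33.7 and 35.4 months. All were castrated males on commercial feed, no agent was given, and the groups were set by image analysis of the carcass, so traits that go with marbling cannot be told apart from NFMP here.

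In initiation, eIF2 carries the initiator tRNA to the small ribosomal subunit, eIF3 and eIF1 hold that subunit ready for scanning, and eIF4F binds the cap of the mRNA and unwinds its leader. The eIF4E binding proteins block eIF4F assembly until TOR signalling phosphorylates them, and eIF2B recharges eIF2 after each round. In elongation, eEF1A delivers aminoacyl-tRNA, the eEF1B subunits recharge eEF1A, and eEF2 moves the ribosome by a codon. Adult skeletal muscle is known for using the eEF1A2 form of eEF1A, while most other cell types use eEF1A1.

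The libraries held between 16283873 and 17192750 counts. The 60 genes took 0.702% of them in steer 3-8 (95% exact binomial interval 0.698 to 0.706), 0.792% in 10-8 and 0.892% in 10-9, against 0.825%, 0.823% and 0.804% in the low-NFMP steers 3-1, 3-3 and 10-16. The high-NFMP steers thus lay on both sides of the low-NFMP steers, and the groups overlapped. Intervals of this kind cover counting error only. All levels below are given in CPM, which are counts scaled to a library total by edgeR's trimmed mean of M-values (TMM) method. They were not divided by transcript length, because the 3′ library method reads a transcript near its end and no transcript lengths were used here, so the order of genes is an order of reads. The markers of fast fibres (MYH1, MYH2, TNNT3 and 7 others) summed to between 22100 and 32400 CPM in a library and those of slow fibres to between 9960 and 15400 CPM, which is the muscle the labels name. In whole muscle, fewer cells of a type and less RNA per cell cannot be told apart.

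A few genes held most of the reads. EEF1A2 was the most abundant, at 1060, 2170 and 1780 CPM in the high-NFMP steers 3-8, 10-8 and 10-9 and at 1430, 1360 and 1380 CPM in the low-NFMP steers 3-1, 3-3 and 10-16. It alone took between 15.4% and 25.1% of the reads of the 60 genes in a library. EIF1, which guards the choice of the start codon, followed at 948 to 1260 CPM, and EEF2, the translocation factor, at 446 to 908 CPM. EEF1A2 was counted more often than EIF1 in each of the 6 steers, by a ratio of 1.12 to 1.86, although the ranges of the 2 genes over steers overlapped. The range of EIF1 lay above that of EEF2 with no overlap.

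Next in the order came EIF5, the GTPase activator of eIF2 (mean over 6 steers 423 CPM), EIF3A, the scaffold of eIF3 (387 CPM), EIF4G2 (353 CPM), EEF1G (325 CPM), EIF4G3 (280 CPM), EIF2S2 (275 CPM) and EEF1B2 (274 CPM). The 10 leading genes held between 66.2% and 70.8% of the reads of the 60 genes. Of the 59 pairs of neighbours in the order, 57 had overlapping ranges, and in 6 pairs the order was the same in every steer, so the order below EIF1 is loose. At the low end, EEF1AKMT3, a methyltransferase of eEF1A, had 9 to 20 counts in a library, EIF2D 12 to 71 and EIF4H 16 to 61. EIF5A2, the second eIF5A gene, had 0 to 9 counts and was the only one of the 60 below the filter on low counts.

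**Figure D1:**
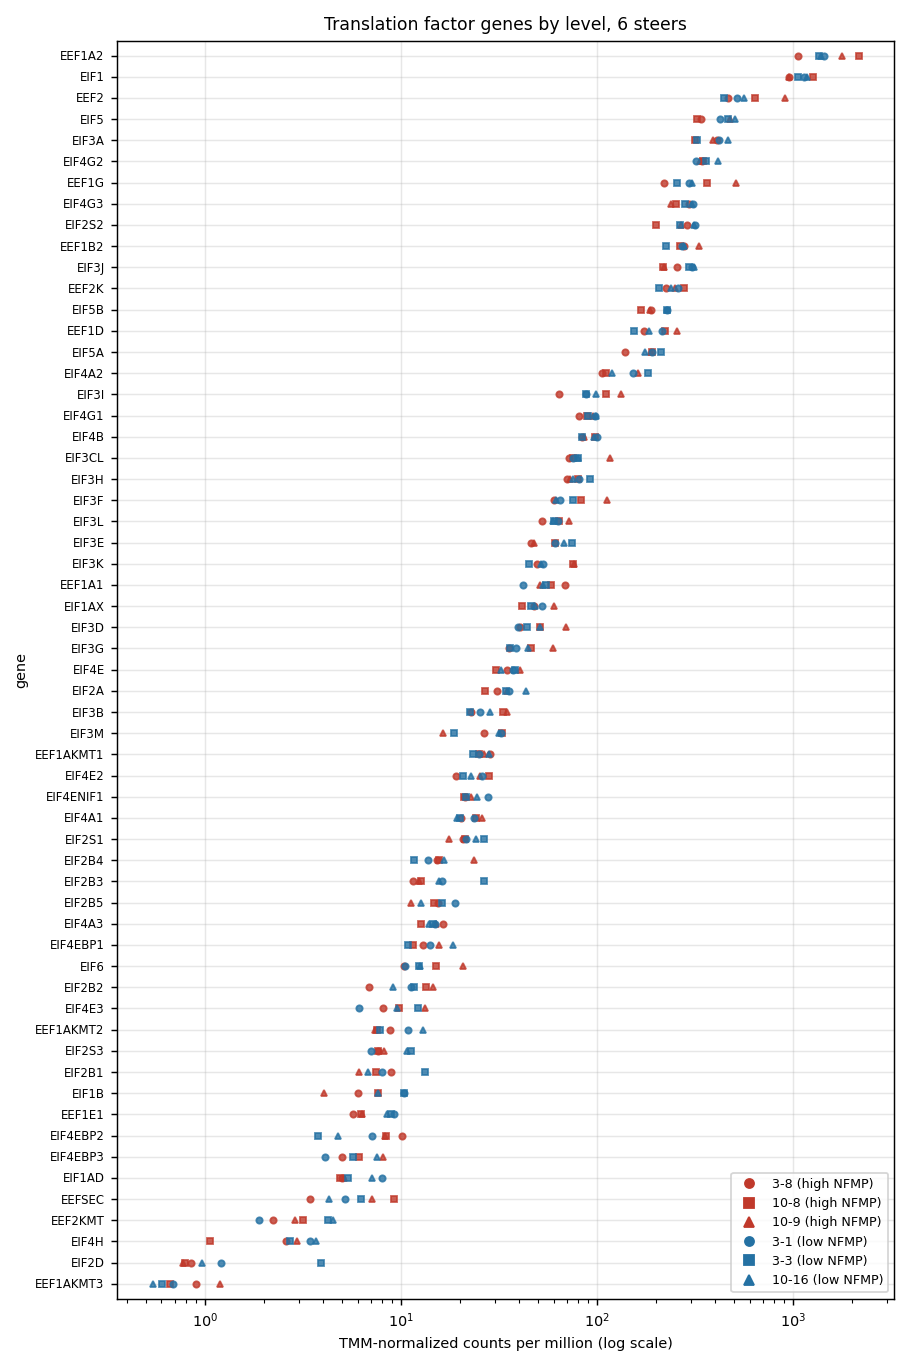
CPM of the 59 tested genes (horizontal log axis) in each of 6 steers, ordered by mean, with high-NFMP steers in red and low-NFMP steers in blue and a marker shape for each steer. EEF1A2 and EIF1 stand at the top near 1530 and 1090 CPM, and EEF1AKMT3 closes the order at a mean of 0.765 CPM.

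Among genes that encode alternative forms of a factor, 1 form led in each of the 6 steers. EEF1A1 was at 68.8, 58.2 and 51.3 CPM in steers 3-8, 10-8 and 10-9 and at 41.9, 55.1 and 53 CPM in steers 3-1, 3-3 and 10-16. EEF1A2 therefore made up 93.9% of the reads on the pair in steer 3-8 (95% exact binomial interval 93.6 to 94.2), 97.4% in 10-8, 97.2% in 10-9, 97.2% in 3-1, 96.1% in 3-3 and 96.3% in 10-16. The share in steer 3-8 was the lowest, and the other steers lay close together. As a ratio, EEF1A2 reads were 29.1 ± 11.9 times EEF1A1 reads (SD, n = 3) with high NFMP and 28.3 ± 5.2 times (SD, n = 3) with low NFMP. On the log2 scale the ratio differed by -0.05 between the groups, with p = 1 in a two-sided exact permutation test over 20 assignments, for which 0.1 is the smallest possible p. Without steer 3-8 the difference in log2 ratio was 0.36, and without 3-1 it was 0.1. The genes are close in sequence, and how reads that match several places were assigned is not settled in the sources used here, so the split of reads between EEF1A1, EEF1A2 and any near-identical copies is uncertain.

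EIF4A2 reads exceeded those of EIF4A1, the other form of the eIF4F helicase, by 4.57 to 9.03 times. EIF4A3, which works in the exon junction complex, was below EIF4A1 in all 6 steers, by 1.24 to 1.91 times. Of the large scaffolds, EIF4G3 exceeded EIF4G1 by 2.51 to 3.68 times, and EIF4G2, which lacks the eIF4E binding site, exceeded EIF4G3 by 1.04 to 1.41 times. The cap-binding protein EIF4E exceeded EIF4E2 by 1.09 to 1.84 times, and EIF4E2 exceeded EIF4E3 by 1.71 to 4.23 times. EIF1 exceeded EIF1B by 102 to 235 times.

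Subunits of a single complex were read at unequal levels. In eIF2, the β subunit gene EIF2S2 was read 9.43 to 15.3 times as often as the α subunit gene EIF2S1, and 23.8 to 45.1 times as often as the γ subunit gene EIF2S3. In eIF3, EIF3A was read 9.57 to 18.1 times as often as EIF3B and 9.65 to 23.8 times as often as EIF3M. By contrast, the eEF1B genes EEF1B2 and EEF1D differed by 1.2 to 1.6 times, and EEF1G lay between 0.792 and 1.56 times EEF1B2. The genes for the 5 subunits of eIF2B all had means between 8.41 and 16 CPM.

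The comparison of the groups asked which factors differ with marbling fineness. A gene was called where edgeR's quasi-likelihood test gave an unadjusted p below 0.05 and the fold change exceeded 2, which 1 of the 59 tested genes met. It was EIF2D, lower in the high-NFMP group, while 3.9% of all 15039 tested rows were called, 2.53% as higher and 1.36% as lower. Adjusted over all tested rows, none of the 59 genes had a p below 0.05 by edgeR (0.685% of all rows did), nor by DESeq2 or by limma after quantile normalization. At an unadjusted p below 0.05 alone, 7 of the 59 genes (11.9%) passed by edgeR against 11.5% of all rows, a share close to the background. They were 1 higher gene (1.69% against 5.73% of all rows) and 6 lower genes (10.2% against 5.74%). DESeq2 gave 1 higher gene (1.69% against 5.68%) and 5 lower genes (8.47% against 5.6%). With limma after quantile normalization there were 1 higher gene (1.69% against 5.13%) and 3 lower genes (5.08% against 5.89%), a share of lower genes near the background. The median log2 fold change of high over low was -0.08 over the 59 genes and 0.02 over all tested rows.

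The single differences were small. Log2 fold changes ran from -1.33 for EIF2D to 0.77 for EIF4EBP2, with 28 above and 31 below 0, and for 49 of the 59 genes the 95% interval lay wholly between -1 and 1. In 9 genes (15.3%) the groups did not overlap, against 17.1% of all tested rows. The high-NFMP steers were above in 1 of them (1.69%, against 7.97% of all rows) and below in 8 (13.6%, against 9.16%). Besides 6 of the 7 genes with an unadjusted p below 0.05, all but EIF1B, these were EIF5B, EIF2S1 and EIF1AD.

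**Figure D2:**
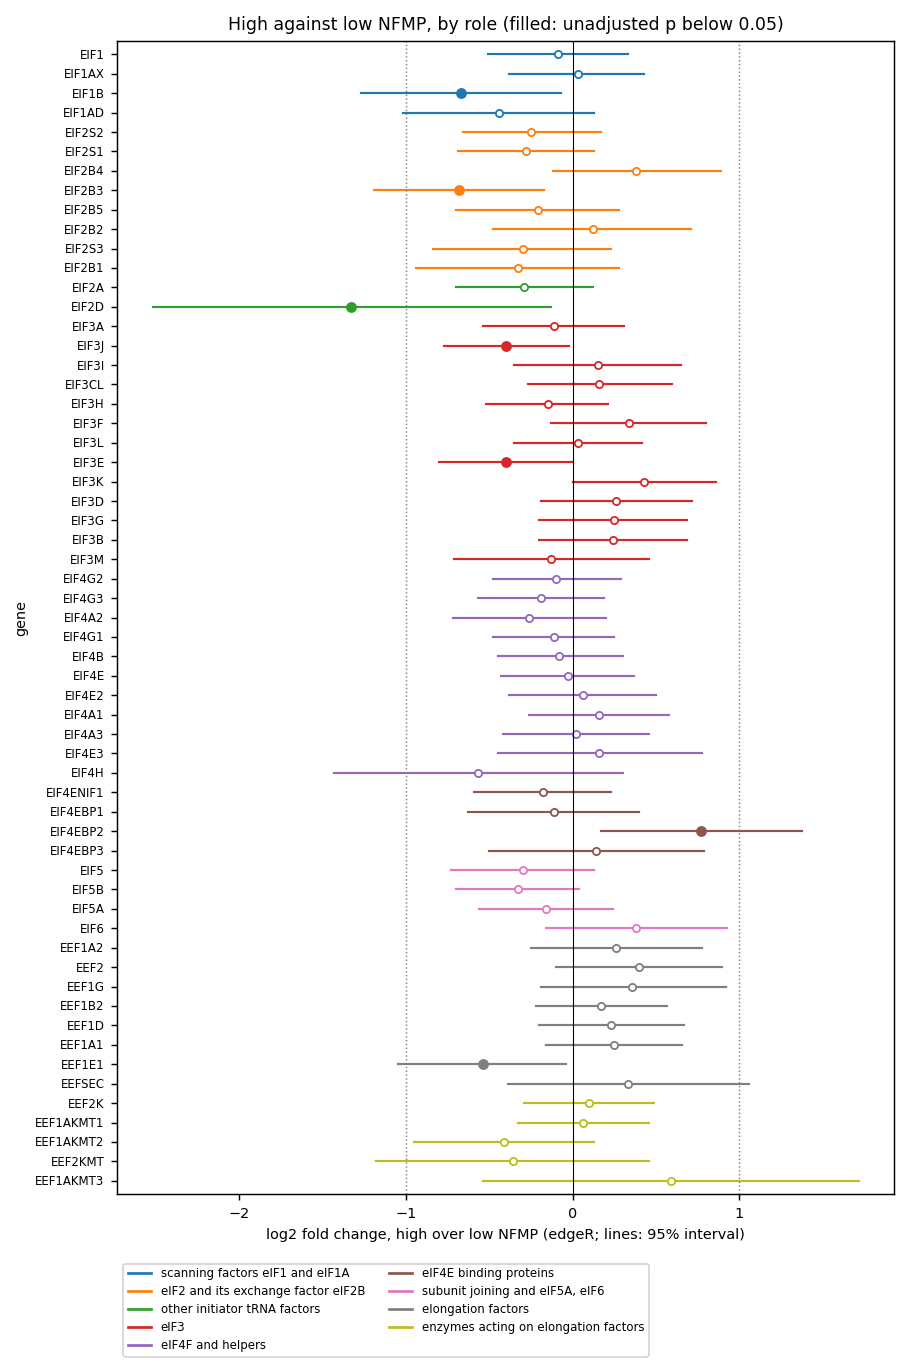
Log2 fold change of high over low NFMP for the 59 tested genes (points) with its 95% interval (lines), coloured by role and ordered within a role by mean level. Filled points mark the 7 genes with an unadjusted p below 0.05 by edgeR, and dotted lines mark a fold change of 2.

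The gene with the smallest p was EIF2B3, the γ subunit of eIF2B. It was at 11.5, 12.7 and 12.3 CPM in the high-NFMP steers 3-8, 10-8 and 10-9 and at 16.1, 26.6 and 15.7 CPM in the low-NFMP steers 3-1, 3-3 and 10-16. The groups were apart, and steer 3-3 was far above the others. The log2 fold change was -0.68 (standard error 0.24, unadjusted p = 0.0124, adjusted p = 0.276 by edgeR), and without steer 3-3 it was -0.39 (unadjusted p = 0.133). The other 4 eIF2B genes had log2 fold changes between -0.33 (EIF2B1) and 0.38 (EIF2B4), and EIF2B1 was likewise highest in steer 3-3, at 13.3 CPM against 6.09 to 8.87 CPM in the rest. The eIF2 subunit genes EIF2S1, EIF2S2 and EIF2S3 were at -0.28, -0.25 and -0.30 with intervals that included 0. With 1 steer left out EIF2S2 lay between -0.35 (without 3-8) and -0.07 (without 10-8). Summed over the 8 eIF2 and eIF2B genes, the level stood at 372.3, 292.3 and 362.2 CPM in the high-NFMP steers and at 412.8, 382.9 and 408 CPM in the low-NFMP steers, without overlap. EIF2S2 made up most of this sum, and its own levels overlapped between the groups.

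EIF2D, a non-canonical factor that can deliver initiator tRNA without eIF2, rested on few reads. Its counts were 14, 12 and 13 in steers 3-8, 10-8 and 10-9 and 21, 71 and 16 in steers 3-1, 3-3 and 10-16. The log2 fold change of -1.33 (standard error 0.56, unadjusted p = 0.0318, adjusted p = 0.38 by edgeR) came down to -0.42 without steer 3-3, and the unadjusted p was below 0.05 in 2 of the 6 fits that left out a steer. EIF2A, a second factor of this kind, had a log2 fold change of -0.29 (unadjusted p = 0.152).

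EIF4EBP2, a repressor of eIF4E, was the higher gene. It was at 10.1, 8.34 and 8.3 CPM in the high-NFMP steers 3-8, 10-8 and 10-9 and at 7.12, 3.75 and 4.75 CPM in the low-NFMP steers 3-1, 3-3 and 10-16. The groups were apart in this direction, with steer 3-3 the lowest and 3-8 the highest. The log2 fold change was 0.77 (standard error 0.28, unadjusted p = 0.0153, adjusted p = 0.3 by edgeR), with 0.67 and an unadjusted p of 0.0536 without steer 3-8 and 0.58 and 0.0778 without 3-3. Its relatives EIF4EBP1 (13.9 CPM over all steers, log2 fold change -0.11) and EIF4EBP3 (6.08 CPM, 0.14) had intervals of -0.63 to 0.4 and -0.5 to 0.79. The ratio of EIF4EBP1 to EIF4EBP2 reads within a library, which does not depend on the scaling, was 1.28, 1.38 and 1.88 in steers 3-8, 10-8 and 10-9 and 1.97, 2.91 and 3.9 in steers 3-1, 3-3 and 10-16. The ratio of EIF4EBP2 to EIF4EBP3 reads overlapped between the groups, at 2.01, 1.37 and 1.03 against 1.74, 0.66 and 0.627. Both ratios use the same EIF4EBP2 reads as the test above and are not separate evidence. EIF4ENIF1, which carries eIF4E into the nucleus, was at -0.18.

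EIF1B was at 6.03, 7.67 and 4.06 CPM in the high-NFMP steers and at 10.3, 10.4 and 7.63 CPM in the low-NFMP steers. Steers 10-8 and 10-16 lay side by side, so the groups touched. Its log2 fold change was -0.67 (standard error 0.28, unadjusted p = 0.0306, adjusted p = 0.376 by edgeR). Without steer 10-9 it was -0.44 (unadjusted p = 0.128), and 2 of the 6 fits that left out a steer had an unadjusted p below 0.05. EIF1, its abundant relative, was at -0.09 with an interval of -0.51 to 0.33. EIF1AX, which keeps the scanning subunit open, was at 0.03, and the related EIF1AD at -0.44 (unadjusted p = 0.119).

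The 13 eIF3 genes did not move one way. EIF3J, a loosely held subunit, was at 257, 216 and 219 CPM in the high-NFMP steers and at 304, 294 and 314 CPM in the low-NFMP steers. The groups were apart, and the low-NFMP steers were close to each other. Its log2 fold change was -0.40 (standard error 0.18, unadjusted p = 0.0402, adjusted p = 0.41 by edgeR). EIF3E was at 45.9, 60.9 and 47.5 CPM against 61.3, 74.4 and 67.6 CPM, also without overlap, with a log2 fold change of -0.40 and an unadjusted p of 0.0494. Both p values are near the threshold, and with 1 steer left out either gene stayed below 0.05 in 1 of 6 fits. On the other side of 0, EIF3K was at 49.4, 75.3 and 75.9 CPM against 52.7, 44.8 and 51.8 CPM, a log2 fold change of 0.43 (unadjusted p = 0.0523). In EIF3K the steers 10-8 and 10-9 stood above all others, while 3-8 lay among the low-NFMP steers. Over the 13 subunits 8 log2 fold changes were above and 5 below 0, and the median was 0.15.

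EEF1E1, known also as a scaffold of the aminoacyl-tRNA synthetase complex, varied little within the groups. It was at 5.67, 6.22 and 6.33 CPM in the high-NFMP steers and at 9.23, 8.87 and 8.47 CPM in the low-NFMP steers, without overlap. The log2 fold change was -0.54 (standard error 0.24, unadjusted p = 0.0368, adjusted p = 0.406 by edgeR). It had an unadjusted p below 0.05 in 1 of the 6 fits that left out a steer.

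The steer labels start with 3 or with 10 in either group, and this number was also fitted as a term. EIF4EBP2 (log2 fold change 0.85), EIF2B3 (-0.61), EEF1E1 (-0.55) and EIF3E (-0.44) then kept an unadjusted p below 0.05 by edgeR. EIF3J (-0.37, unadjusted p = 0.0512), EIF1B (-0.58, 0.0761) and EIF2D (-0.96, 0.146) did not, so EIF2D was no longer called. With age as a term instead, EIF2B3, EIF2D and EIF4EBP2 kept an unadjusted p below 0.05, while EIF3E (0.0675), EIF1B (0.0684), EIF3J (0.0974) and EEF1E1 (0.138) did not. The log2 difference within label 3 and within label 10 was 0.96 and 0.81 for EIF4EBP2, -0.85 and -0.33 for EIF2B3, -0.67 and -0.43 for EEF1E1, -0.56 and -0.33 for EIF3E, -0.22 and -0.53 for EIF3J, -0.77 and -0.45 for EIF1B, and -1.36 and -0.29 for EIF2D. In all of these but EIF1B the groups do not overlap, which fixes the direction within a label. Within label 3 there was 1 high-NFMP steer, and within label 10 there was 1 low-NFMP steer.

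**Figure D3:**
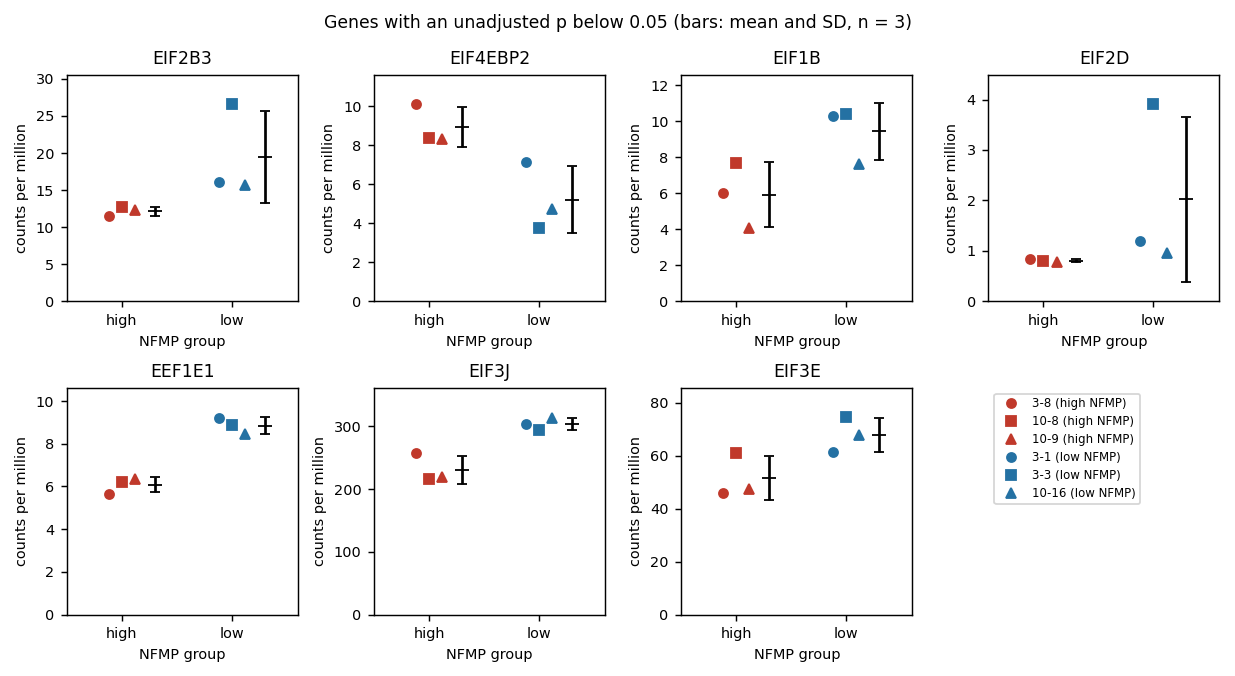
CPM by steer of the 7 genes with an unadjusted p below 0.05 by edgeR, from the smallest p, with the mean and SD of each group (n = 3) in black. EIF4EBP2 was the only one higher in the high-NFMP group, and steer 3-3 stood far above the rest in EIF2B3 and EIF2D.

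The remaining elongation genes did not separate the groups. Of the 8, all but EEF1E1 had a log2 fold change above 0, and none of these 7 had an unadjusted p below 0.05 by edgeR without a covariate. Within label 3 and within label 10, however, the log2 difference had opposite signs in 5 of these 7, at -0.39 and 0.51 for EEF1A2, -0.04 and 0.44 for EEF2, -0.32 and 0.51 for EEF1G, -0.08 and 0.38 for EEF1D and -0.72 and 0.93 for EEFSEC. Opposite signs were also common among the other tested genes, and label 3 held only steer 3-8 from the high-NFMP group. With the label number as a term the log2 fold change was 0.06 for EEF1A2, 0.21 for EEF2 and 0.10 for EEF1G. EEF1A2 averaged 1670 ± 563 CPM (SD, n = 3) over the high-NFMP steers and 1390 ± 39.4 CPM over the low-NFMP steers, and its log2 fold change was 0.26 with an interval of -0.25 to 0.78. The spread was thus far wider among the high-NFMP steers, where both the highest (10-8) and the lowest (3-8) of the 6 values lay. EEF1A1 was at 59.5 ± 8.81 against 50 ± 7.13 CPM, a log2 fold change of 0.25 (-0.16 to 0.66).

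EEF2 was at 467, 637 and 908 CPM in the high-NFMP steers and at 518, 446 and 563 CPM in the low-NFMP steers. Steer 10-9 was well above the others, and the log2 fold change was 0.40 (-0.1 to 0.9, unadjusted p = 0.11). EEF1G, a structural subunit of eEF1B, followed the same order of high-NFMP steers, at 219, 364 and 513 CPM against 293, 256 and 304 CPM (log2 fold change 0.36). EEF1B2 and EEF1D, the exchange subunits, were at 0.17 and 0.23. EEFSEC, which brings selenocysteine-tRNA, was at 3.44, 9.26 and 7.1 CPM against 5.18, 6.22 and 4.27 CPM. EEF2K, the kinase that silences eEF2, was steady, at 208 to 277 CPM in all 6 steers with a log2 fold change of 0.10. The methyltransferases EEF1AKMT1, EEF1AKMT2, EEF1AKMT3 and EEF2KMT were at 0.06, -0.41, 0.59 and -0.36, all with intervals that included 0.

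**Figure D4:**
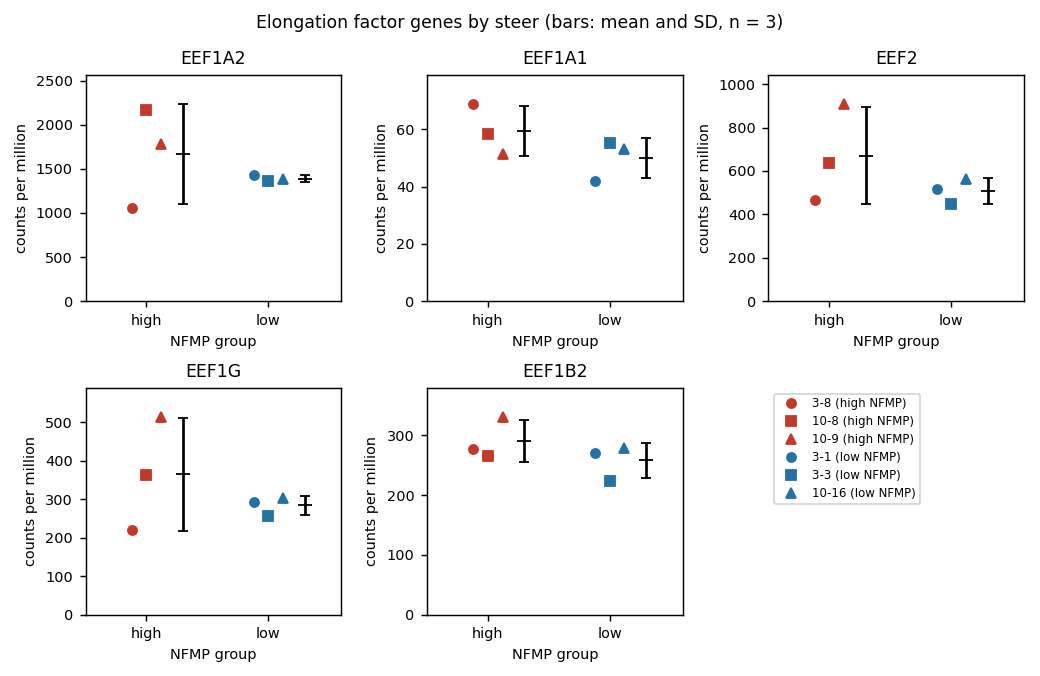
CPM by steer of EEF1A2, EEF1A1, EEF2, EEF1G and EEF1B2, with the mean and SD of each group (n = 3) in black and a linear axis from 0. In EEF1A2, EEF2 and EEF1G, steer 3-8 lay below the other high-NFMP steers, whereas it was the highest of all 6 in EEF1A1.

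Several factors followed single steers more than the groups. Steer 10-9 had the highest of the 6 levels in 21 of the 59 genes (35.6%), compared with 20.4% of all tested rows, and these included 8 of 13 eIF3 genes and 4 of 8 elongation genes. Steer 3-8 had the lowest level in 20 of the 59 (33.9%), compared with 14.9% of all tested rows, with 7 of them in eIF3. Genes within a library share its scaling, so these are descriptions of libraries. Summed over the 8 elongation genes, the levels were 2275, 3731 and 3854 CPM in steers 3-8, 10-8 and 10-9 and 2787, 2507 and 2777 CPM in 3-1, 3-3 and 10-16.

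Steer 3-8 also had the highest sum of the 10 adipocyte markers, 834 CPM, with 346 CPM as the lowest sum among the high-NFMP steers and 339 to 421 CPM among the low-NFMP steers. The defining adipocyte gene ADIPOQ was highest in steer 3-8. It was at 95.7, 57.2 and 60.5 CPM in steers 3-8, 10-8 and 10-9 and at 42, 56.4 and 39.4 CPM in steers 3-1, 3-3 and 10-16. Of these 10 markers 4 (40%, against 5.73% of all rows) were higher at an unadjusted p below 0.05 by edgeR, none at an adjusted one. They were ADIPOQ, CIDEC and CIDEA, each without overlap of the groups, and PLIN4, where the groups overlapped. Of the markers of other cell types, the slow fibre gene MYL3 (log2 fold change -0.78, unadjusted p = 0.00253) and the fibroblast and preadipocyte gene PDGFRA (-0.51, 0.0391) were lower without overlap, and no further one tested had an unadjusted p below 0.05 by edgeR. The fast fibre markers summed to between 22100 and 32400 CPM in the high-NFMP steers and between 23200 and 28900 CPM in the low-NFMP steers, and those of slow fibres to between 9960 and 15400 CPM and between 10600 and 13700 CPM. Fibroblast markers summed to between 744 and 947 CPM against 589 and 767 CPM, those of endothelium to between 59.3 and 90.4 CPM against 60.8 and 76.8 CPM, those of smooth muscle and pericytes to between 66.1 and 107 CPM against 58.7 and 81.6 CPM, and those of nerve to between 11.8 and 17.7 CPM against 8.89 and 12.8 CPM. The sum of the macrophage and lymphocyte markers was narrowly apart, at 19.5 to 21.5 CPM against 13.2 to 19 CPM. Of its genes, CD14 and CSF1R were apart (unadjusted p = 0.0712 and 0.0541 by edgeR), whereas PTPRC and CD68 overlapped. CD3E and MS4A1 were below the filter, with MS4A1 at 0 counts in 3 libraries. The part of other cell types in the results on translation factors was not tested.

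Without steer 3-8, 8 of the 59 genes were higher at an unadjusted p below 0.05 by edgeR (13.6%, against 6.97% of all rows) and 2 were lower (3.39%, against 8.29%). The 8 were EEF1A2 (log2 fold change 0.50), EEF2 (0.60), EEF1G (0.62), EEFSEC (0.64), EIF3F (0.53), EIF3I (0.40), EIF3K (0.60) and EIF6 (0.60), and the smallest adjusted p among them was 0.172. Without 10-9 the log2 fold change was 0.14 for EEF2, 0.06 for EEF1G and 0.24 for EEF1A2. Without 10-8 it was 0.48 for EEF2, 0.41 for EEF1G and 0.07 for EEF1A2. In each of these 2 fits 1 of the 59 genes was higher (1.69%, against 6.05% of all rows without 10-9 and 5.66% without 10-8). With age as a term, 4 were higher (6.78%, against 4.14% of all rows), namely EEF2 (log2 fold change 0.64, unadjusted p = 0.0421), EEF1D, EIF3K and EIF4EBP2, and 2 were lower (3.39%, against 4.24%), EIF2B3 and EIF2D. In that fit EEF1G was at 0.63 (unadjusted p = 0.0522), EEF1A2 at 0.43 and EEF1A1 at 0.00.

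**Figure D5:**
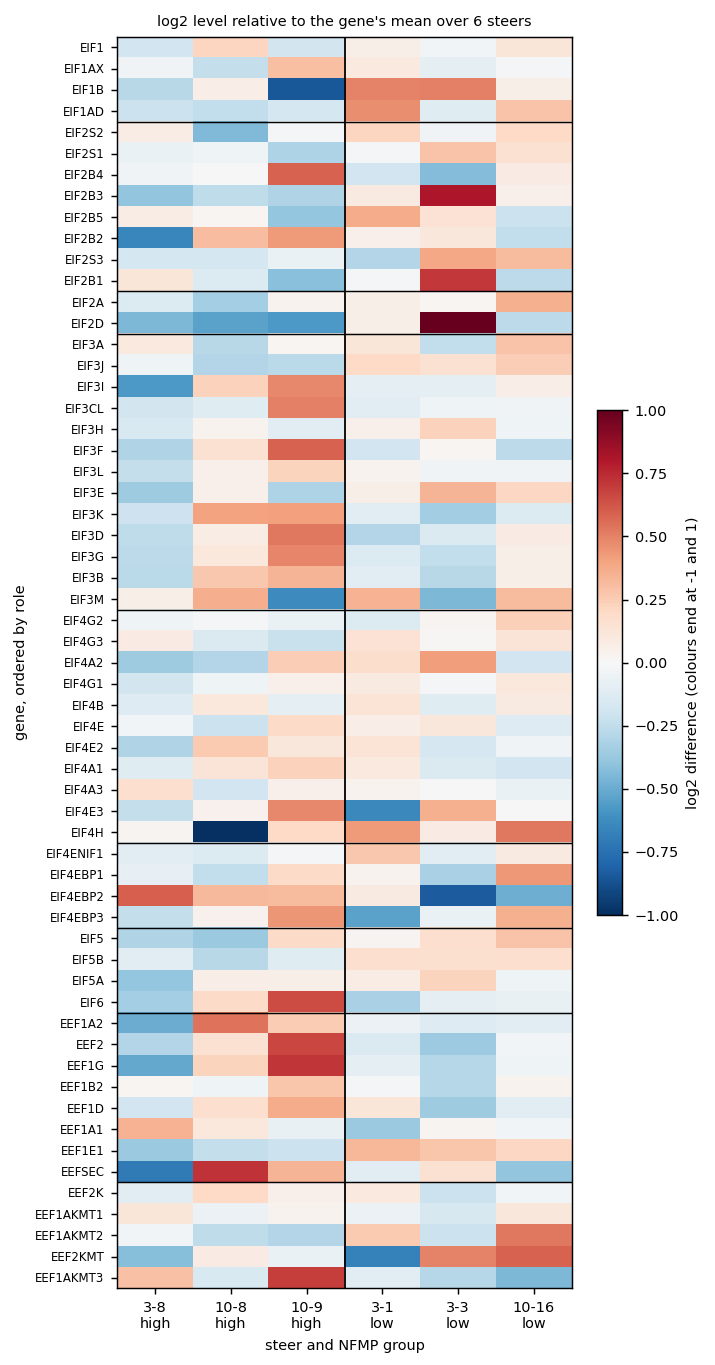
Log2 level of each of the 59 genes relative to its own mean over the 6 steers (red above, blue below, colours ending at -1 and 1), with steers in columns and genes in rows by role. In steer 10-9 most eIF3 and elongation genes lie above their mean, in 3-8 most lie below it, and the steer 3-3 column stands out in EIF2B3, EIF2B1 and EIF2D.

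The helpers of eIF4F varied little between the groups. Each of the 11 genes had an interval that included 0, from EIF4H at -0.57 to EIF4A1 and EIF4E3 at 0.16, and the median was -0.08. Summed over the 11 genes the level stood at 1009, 1001 and 1039 CPM in the high-NFMP steers and at 1089, 1105 and 1136 CPM in the low-NFMP steers. This sum did not overlap between the groups, although each of the 11 genes did on its own. Only EIF4G2, EIF4G3 and EIF4A2 had means above 100 CPM in it. EIF4G1 (80.5 to 98.4 CPM) and EIF4B (83.4 to 100 CPM), which stimulates the helicase, were steady over all 6 steers.

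In the step that joins the ribosomal subunits, EIF5B was at 189, 167 and 187 CPM in the high-NFMP steers and at 228, 227 and 228 CPM in the low-NFMP steers. The groups were apart and the low-NFMP values almost equal, but with the variance that edgeR fits from all rows the log2 fold change of -0.33 had an unadjusted p of 0.074. With library totals in place of TMM, EIF5B joined the lower genes at an unadjusted p below 0.05, which were then 7 of 59 (11.9%, against 7% of all rows). EIF5 was at -0.30 (-0.73 to 0.13). EIF5A, which frees stalled ribosomes, was at -0.16, and EIF6, which keeps the large subunit from joining too early, at 0.38 (-0.16 to 0.93).

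Of 65 other genes of translation control outside these families, 63 were tested, and 9 were lower and none higher at an unadjusted p below 0.05 by edgeR (14.3% lower, against 5.74% of all rows). None had an adjusted p below 0.05. By group the 9 were 3 of 17 genes of the TOR pathway, 1 of 10 tested eIF2 kinases and stress response genes, 3 of 8 partners of the cap and the poly(A) tail, 1 of 3 late start-site factors, none of 8 termination and 9 modifier genes and 1 of 8 mitochondrial factors. PAIP2, an inhibitor of poly(A)-binding protein, was at 33.5, 26.5 and 12.6 CPM in the high-NFMP steers and at 47.3, 76.1 and 42.3 CPM in the low-NFMP steers. The groups were apart, with a log2 fold change of -1.19 (unadjusted p = 0.00582, adjusted p = 0.212). It was the 1 gene of the 63 that was also past a fold change of 2.

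PAIP1, which links poly(A)-binding protein to eIF4A, was at -0.74 (unadjusted p = 0.0049), and LARP4, which protects poly(A) tails, at -0.57. SESN1, a brake on TOR signalling, was at -0.98 (unadjusted p = 0.00291), with steers 3-3 and 10-16 at 359 and 300 CPM and the other 4 between 124 and 154 CPM. Among the subunits of TOR complex 1, RPTOR was at -0.52 (unadjusted p = 0.0231), while MTOR at -0.21, MLST8 at 0.54, AKT1S1 at 0.07 and DEPTOR at 0.35 had intervals that included 0. RPS6KB1, a kinase that this complex phosphorylates, was at -0.60 (unadjusted p = 0.0244). The eIF2 kinase gene EIF2AK3 was at 6.7, 6.62 and 5.61 CPM against 9.34, 9.47 and 9.86 CPM, a log2 fold change of -0.60 (unadjusted p = 0.0227). ABCE1, which splits ribosomes after termination, was at -0.61, and TSFM, an elongation factor of mitochondria, at -0.66. ATF4, the transcription factor whose translation depends on eIF2, was at a log2 fold change of 0.03. Without steer 3-8, 7 of the 63 genes were higher and 10 lower, in a fit where 6.97% of all rows were higher and 8.29% lower.

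Of the 60 genes, 15 overlap another listed gene in RefSeq's ARS-UCD2.0 annotation, 7 of them a protein-coding one, and it was not tested how far such pairs share reads. The paper names another cattle assembly for its mapping, so these overlaps may differ from those of the gene models counted. EIF5A overlaps GPS2, which had more counts (4103 to 5351, against 2312 to 3846 for EIF5A) and a log2 fold change of -0.02. EIF4A2 overlaps RFC4, whose counts were 714, 706 and 1435 with high NFMP and 1089, 1531 and 709 with low NFMP. In both EIF4A2 and RFC4 the steers 10-9, 3-1 and 3-3 were the higher ones. A small nucleolar RNA gene inside EIF4A2, LOC112448304, had 10, 35 and 130 counts against 7, 26 and 6 (log2 fold change 2.27, unadjusted p = 0.0364, adjusted p = 0.404 by edgeR), with steer 10-9 far above the rest. EEF2KMT overlaps ALG1, whose counts of 42, 50 and 56 against 35, 90 and 94 went with the 37, 48 and 48 against 33, 77 and 75 of EEF2KMT. None of the 7 genes that overlap a protein-coding gene was among the genes with an unadjusted p below 0.05.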

How the data were processed

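LT muscle RNA of 6 steers was sequenced from a 3′ mRNA library. The authors deposited raw read counts per gene symbol, without normalization. Their methods name Tophat2 with HTSeq and also Bowtie2 with unique and multiple alignments. The sources used here do not give which of these made the counts or whether strand was used. The totals of 16283873 to 17192750 counts leave a gene of 10 counts with a large counting error, and without molecular identifiers a read need not be a separate molecule.

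Groups came from the sample labels. The test was edgeR 4.0.16 in R 4.3.3, run on these counts. Its default filter (minimum count 10, minimum total 15) kept 15039 of 23015 rows. TMM normalization (factors 0.915 to 1.083), robust dispersions and the quasi-likelihood test were used, with Benjamini-Hochberg adjustment over all tested rows. Standard errors came from the fold change and the F statistic, and 95% intervals from the t distribution of that test. Each library came from a separate steer, and p values measure the spread between these 6 steers. Alternatives were DESeq2 1.42.0, quantile normalization with limma 3.58.1, other filters and scalings, label number or age as a covariate, and leaving out 1 steer at a time. On simulated counts for 15039 genes in this comparison, edgeR found 79% of the genes given a log2 fold change of 2, and 29% of those given 1, at an adjusted p below 0.05.

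The genes, roles and lists were chosen with earlier results of these data known. Named genes were the 10 most abundant, EEF1A1 and EEF1A2, those with an unadjusted p below 0.05, those under the filter and the alternative forms and subunits of a factor. EIF5B, EIF3K, ATF4, the remaining TOR complex genes and the overlapping genes were added with their values known. EIF4E1B was not analysed here.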

Additional observations from a re-analysis of the deposited data

How the results depend on the processing

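The count of 0 genes at an adjusted p below 0.05 held in all alternatives run. With at least 10 counts in every library, 2 genes were higher at an unadjusted p below 0.05 in place of 1 (3.45%, against 5.87% of all rows), and 1 of the other translation genes was higher in place of 0. With quantile normalization and limma, and also with a term for labels that start with 3 or with 10, 0 genes were past the p and fold change limits (all rows 4% and 3.68%) and 3 were lower (5.08%, against 5.89% and 4.49% of all rows). With age as a term, 2 genes were past both limits (3.39%, against 4.33%), 4 were higher (6.78%, against 4.14%) and 2 lower (3.39%, against 4.24%), and of the other translation genes 2 were higher and 5 lower. With each steer left out, genes past both limits numbered 0 to 2 (at most 3.39%, against 4.06% to 4.83% of all rows), higher genes 0 to 8, lower genes 1 to 4 (4 without 10-9, 6.78% against 4.13%), and other translation genes 0 to 7 higher and 5 to 10 lower. The 0 higher and 1 lower came without steer 3-3 (all rows 5.32% and 3.96%) and the 8 higher without 3-8 (13.6%, against 6.97%). The median log2 fold change then lay between -0.07 and 0.04, and the difference in log2 ratio of EEF1A2 to EEF1A1 between -0.28 and 0.36, turning positive without steer 3-8 (0.36) or 3-1 (0.10). The share of all reads on the 60 genes, had a high-minus-low difference of -0.0216 percentage points, which was 0.0174 on the TMM scale and between -0.07 and 0.0252 with a steer left out. With a steer left out EIF3A lay between -0.25 and 0.04, positive without 10-8 (0.02) or 10-16 (0.04), and EIF4G2 between -0.19 and 0.04, positive without 10-16. The cause was not tested for these changes. An unadjusted p below 0.05 was kept in 13 of 14 alternatives by EIF2B3, in 12 by EIF4EBP2, in 8 each by EIF1B, EEF1E1 and EIF2D, in 6 by EIF3J and in 4 by EIF3E. Scaling by coding length and the count of pyrimidine-rich starts were not run, since they need sequences that were not used here. No paired analysis was possible because no label pairs single steers, so the first label number entered only as the term above. Depth limits EIF2D, EEF1AKMT3, EEF2KMT, EIF4H and EIF5A2, with under 100 counts in every library.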
